A study of Ambystoma mexicanum with 12 samples.

Results

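The loci described here are transcribed regions that the authors' assembly of axolotl limb blastema RNA placed opposite a known gene. A locus was taken when its assembled gene carried no reference name, held only transcripts named by the assembler, overlapped the span of a reference gene on the other strand of the same scaffold, and overlapped no reference gene on its own strand. The assembly held 1355 such loci, and 1037 of them had at least 10 counts in at least 6 libraries. They are 1037 of the 10646 unannotated genes and of the 25879 genes of any kind that passed this filter, out of 36917 genes counted. The 318 removed loci included 8 with no count in any library. The lowest mean count of a kept locus was 8.92 per library, and the highest of a removed locus was 103, in a locus that reached 10 counts in fewer than 6 libraries. Positions are 1-based on AmexG_v3.0.0 scaffolds, as the merged assembly gives them. No genome sequence was used here, so no sequence is shown.

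Antisense transcripts are RNAs read from the strand opposite a gene, and many of them are long, spliced, polyadenylated and without an open reading frame of note. In other vertebrates they are known to start near a gene's promoter, to run into a neighbouring gene from its end, or to lie inside an intron, and some act on the gene they cross while many have no known role. To see them, a library must keep the strand of the RNA, since reads of both strands otherwise fall together.

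The RNA came from albino axolotls (Ambystoma mexicanum) whose forelimbs were amputated through the mid-zeugopod, the lower arm. From 24 h after amputation the animals were kept for 5 days either in 25 nM Am580, a retinoid that activates retinoic acid receptor alpha, or in an equal volume of its solvent DMSO, and the right blastema, the bud of a regenerating limb, was taken 24 h later with its epidermis stripped off. Each of the 12 libraries, 6 per treatment and numbered 1 to 6 within it, holds 1 blastema of 1 animal. The Am580 animals sequenced were those whose other forelimb became most duplicated, and the DMSO animals had no duplication, so that choice cannot be told apart from the treatment.

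The libraries held between 27226012 and 43793138 counts, and 3 counts, the most that a count of 0 allows, equalled 0.0685 to 0.110 CPM, counts per 1000000 counts of a library. This limit covers counting error only, and the errors given with ± hold the spread between animals. Of the marker lists, the 7 connective tissue genes, among them PRRX1 and COL3A1, summed to 5692 to 14290.3 CPM and 0 were called by edgeR or DESeq2, with 2 at an unadjusted p under 0.05. The 8 epidermal genes summed to 135 to 306 CPM, and of the 6 tested 0 were called by either tool, with 3 at an unadjusted p under 0.05. The osteoclast and macrophage markers CTSK, ACP5 and CSF1R fell with Am580 while MARCO rose, and the 4 genes summed to 2025 to 3045 CPM with DMSO and to 620.2 to 1005 CPM with Am580, without overlap. COL3A1, at a mean of 8216 CPM, made up most of the connective tissue sum, and PERP, at a mean of 165 CPM, most of the epidermal sum. The 5 muscle genes summed to 3381 to 10832.6 CPM with DMSO and to 2126 to 11070.9 CPM with Am580. Of these, MYOG was called higher (adjusted p = 0.0489, edgeR's quasi-likelihood test). The erythroid marker ALAS2 had 9.72 to 83.4 CPM with DMSO and 15.9 to 65.6 CPM with Am580, and was not called. In bulk RNA, fewer cells of a type and less RNA per cell cannot be told apart. No pair of libraries held identical counts.

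Most antisense loci lay inside the gene they crossed. The whole span of 659 loci was within the span of the gene, 163 met the gene tail to tail at the 3′ ends, 152 met it head to head at the 5′ ends, and 63 contained the gene. Only 78 of the 1037 loci began within 1 kb of the gene's own start. The loci crossed 933 different genes, and 194 loci shared their gene with at least 1 other locus, up to 6 on 1 gene, so these are not independent of each other. Where a locus crossed several genes, it was set against the one it overlapped over the most bases, and 1009 loci crossed exactly 1.

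The loci were short in exons and usually had more than 1 exon in the assembly, which depends in part on how they were chosen. A member needs a strand in the assembly, and 2932 unannotated genes that passed the count filter had none. Those could not be members, and how many of them lie opposite a gene is not known. The median locus had 3 exons and 740 exon bases, and 95 loci had 1 exon. Of the 1037 loci, 810 shared exon bases with the gene's exons on the other strand, 469 of them over 90% of their own exon bases, and 227 shared none. Introns sorted them further, by rules set after the data were seen. In 280 loci at least 1 intron had both ends within 10 bases of an intron of the crossed gene, which is called a mirrored intron here. The 820 mirrored introns matched the gene's intron exactly in 4 cases, and the median offset of an intron end was 2 bases. In a further 176 loci every intron lay wholly inside an exon of the gene, so that the assembled locus had a gap where the gene model had none. Introns here are gaps between assembled exons, and their splice sites were not checked. The other 354 loci with shared exon bases had neither feature or had no intron.

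The loci were lowly to moderately abundant, with a wide spread. Together they took 1.68% to 1.93% of all counts in a library. The mean CPM of a locus over the 12 libraries ranged from 0.244 to 985, with a median of 3.51 and quartiles of 1.12 and 11.9, against a median of 10.8 CPM for the 15233 reference genes tested. Per kilobase of exon, as RPKM, the median locus stood at 4.63, the median crossed gene at 2.50 and the median of all reference genes tested at 2.92. A locus was higher than the model of its own gene per length in 570 cases and lower in 467, with a median log2 ratio of 1.11. That median turned negative, to -1.57, when the 318 low loci were kept in.

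**Figure D1:**
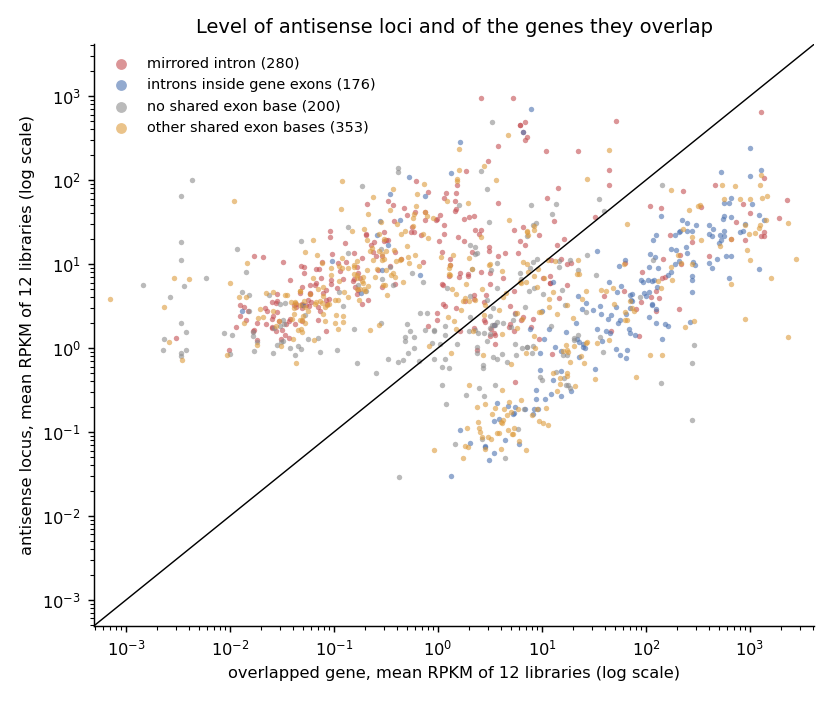
Each point is 1 antisense locus, with the mean RPKM of the 12 libraries of the gene it crosses on the horizontal axis and its own on the vertical axis, both on log scales. Colours give the kind of overlap and the line marks equal levels. Loci with introns inside gene exons (blue) sit mostly below the line at a median of 63.9 RPKM for the gene, and loci with a mirrored intron (red) mostly above it. The 28 loci whose gene has no count are not drawn.

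The kinds of overlap differed in level relative to the gene. The 176 loci with introns inside gene exons crossed abundant genes, with a median of 63.9 RPKM, and held a median of 0.709% of the gene's CPM, with quartiles of 0.395% and 1.70%. The 280 loci with a mirrored intron crossed weakly counted gene models, with a median of 1.14 RPKM, and 164 of them had more CPM than the gene model. In loci that shared no exon base, the median was 1.82 RPKM against 1.04 for the gene. Across all loci, 203 held under 1% of the gene's CPM, 367 held 1% to 100%, 380 held 1 to 100 times as much, and 87 held over 100 times as much, among them 28 whose gene had no count. How far counts under 1% were read from the gene's own strand was not tested.

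None of the 5 most abundant loci was called. The highest, MSTRG.413 (scaffold AMEXG_0030000077, 4576993 to 4578501, minus strand), lay inside HNRNPA0, which codes for an RNA-binding protein of nuclear ribonucleoprotein particles, and all 17 of its introns lay inside gene exons. Its levels were 895, 969 and 1103 CPM in the 6 DMSO libraries and 896, 972 and 1168 CPM in the 6 Am580 libraries (lowest, median and highest, as in all sentences of this form), against a mean of 18.3 CPM for the gene. MSTRG.953 (scaffold AMEXG_0030000172, 3104699 to 3143293, plus strand) met PIDD1, a death domain protein of the DNA damage response, head to head, at 527, 629 and 826 CPM in the 6 DMSO libraries and 623, 698 and 1110.3 CPM in the 6 Am580 libraries.

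MSTRG.4891 (scaffold AMEXG_0030000982, 4390009 to 4413210, minus strand) lay opposite RPS19, a protein of the small ribosomal subunit, with all 5 introns mirrored, and had 489, 663 and 813 CPM in the 6 DMSO libraries and 589, 675 and 961 CPM in the 6 Am580 libraries. The gene model on the other strand had a mean of 2.65 CPM. MSTRG.7139 (scaffold AMEXG_0030001523, 10292612 to 10307730, minus strand), opposite the large subunit gene RPL36 with 3 of 5 introns mirrored, had 260.2, 409 and 679 CPM in the 6 DMSO libraries and 347, 445 and 668 CPM in the 6 Am580 libraries. The RPL36 model had a mean of 2.92 CPM. In both cases nearly all counts of the place stood under the unannotated locus. From which strand RPS19 and RPL36 are transcribed was not tested. The means of their models therefore need not be the levels of these genes. MSTRG.23405 (scaffold AMEXG_0030011414, 60970 to 79364, plus strand), opposite a gene without a symbol, had 325, 392 and 538 CPM in the 6 DMSO libraries and 353, 406 and 741 CPM in the 6 Am580 libraries. The treatments overlapped in all 5, and their adjusted p ranged from 0.426 for MSTRG.953 to 0.92 for MSTRG.413 by edgeR's quasi-likelihood test, with 0 of the 5 at an unadjusted p under 0.05 and 0 called by DESeq2.

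The 280 loci with mirrored introns held from 1 to 20 of them. In 30 loci at least 7 introns were mirrored, and 19 of these 30 had more CPM than the gene. MSTRG.4497, opposite HELLS, a chromatin remodeller, mirrored 20 of its 21 introns and had a mean of 31.7 CPM against 0.921 for the HELLS model. MSTRG.12810, opposite mcm3, a subunit of the replicative helicase, mirrored 15 of 17 introns at 30.8 CPM against 0.958. These loci were picked after their values were seen, as were the next. MSTRG.231, opposite P4HA3, a subunit of collagen prolyl 4-hydroxylase, mirrored 11 of 12 introns at 3.56 CPM against 0.0848, and MSTRG.17348, opposite the annexin gene ANXA1, 11 of 12 at 4.71 CPM against 0.0999. In others the gene held more: MSTRG.10223, opposite the condensin gene smc4, mirrored 12 of 14 introns at 4.11 CPM against 63.8. At which strand such a gene is transcribed was not tested.

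The first question was whether antisense loci changed with Am580. By edgeR's quasi-likelihood test, with p-values adjusted over all 25879 genes, 132 of the 1037 loci (12.7%) passed an adjusted p of 0.05, where 14.1% of all genes tested passed. Of these 54 rose, against a background of 6.93%, and 78 fell, against 7.21%, so the share called was close to that of the whole table. The median log2 fold change, Am580 over DMSO, was 0.0029 over the loci and 0.0043 over all genes. With counts scaled by library size alone, 51.1% of the called loci were higher, against 40.9% with TMM factors. A change of at least 1 on the log2 scale was reached by 70 of the called loci, 32 up and 38 down. The share of all genes at this threshold was not counted, so these counts cannot be set against the whole table. The treatments did not overlap in 77 loci, 36 higher and 41 lower with Am580, where 8.60% of all genes did not overlap.

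By kind of overlap, 34 of 176 loci (19.3%) with introns inside gene exons were called, 22 of them higher. Of the 280 loci with a mirrored intron 31 (11.1%) were called, 23 of them lower. Of the 227 without shared exon bases 23 (10.1%) were called, 14 of them lower. Of the other 354, 44 (12.4%) were called, 29 of them lower. Among all genes tested 14.1% were called, 6.93% higher and 7.21% lower. These shares were not tested against each other or against that of all genes.

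Of the called loci that averaged 1 CPM or more and kept the treatments apart in every library, the largest rise was in MSTRG.25656 (scaffold AMEXG_0030046032, 12644 to 19170, minus strand), which met a gene without a symbol tail to tail. It had 0.201, 0.553 and 1.29 CPM in the 6 DMSO libraries and 8.82, 23.9 and 34.1 CPM in the 6 Am580 libraries, so every Am580 library was above every DMSO library. Its log2 fold change was 5.21 ± 0.47, adjusted p = 9.15e-06. The gene had at most 1 count in any DMSO library, under the limit given above, and 2 to 28 counts with Am580, and was too low to be tested.

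MSTRG.161 (scaffold AMEXG_0030000031, 990541 to 999476, plus strand) lay inside the span of VPS13A, which codes for a lipid transfer protein, and shared none of its exon bases. It had 0.0888, 0.367 and 0.771 CPM in the 6 DMSO libraries and 2.22, 7.45 and 11.3 CPM in the 6 Am580 libraries, with a log2 fold change of 4.23 ± 0.53, adjusted p = 0.000136. VPS13A itself had 40.9, 42.8 and 58.2 CPM in the 6 DMSO libraries and 42.2, 44.4 and 45.6 CPM in the 6 Am580 libraries, with overlapping treatments and a log2 fold change of -0.05 ± 0.09, adjusted p = 0.797. Another unannotated locus on the same strand, MSTRG.160 (positions 989985 to 1000215), whose span contains that of MSTRG.161, rose as well, by 4.77 ± 0.50 on the log2 scale (adjusted p = 3.16e-05), from 0.0678 to 1.88 CPM. MSTRG.160 had only 1 to 4 counts in the DMSO libraries, near the limit given above, so the size of its rise is uncertain.

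The other 4 leading rises went with a rise of the gene. MSTRG.3857 (scaffold AMEXG_0030000752, 2594772 to 2649067, minus strand) lay inside lgals9c, a gene of the galectin family of sugar-binding proteins, and had 0.339, 1.25 and 2.63 CPM in the 6 DMSO libraries and 12.8, 14.9 and 19.1 CPM in the 6 Am580 libraries. The locus rose by 3.50 ± 0.34 on the log2 scale (adjusted p = 1.78e-05) and the gene by 3.18 ± 0.17 (adjusted p = 2.08e-07), from a median of 149 to 1443 CPM. MSTRG.6824 (scaffold AMEXG_0030001458, 4095670 to 4104355, plus strand), inside COLEC12, a scavenger receptor with a lectin domain, had 0.779, 1.02 and 1.17 CPM in the 6 DMSO libraries and 2.03, 3.54 and 3.84 CPM in the 6 Am580 libraries, and neither the locus nor the gene overlapped between treatments. Its log2 fold change was 1.71 ± 0.19, adjusted p = 4.24e-05, and that of COLEC12 was 1.56 ± 0.19, adjusted p = 0.000132.

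MSTRG.9078 (scaffold AMEXG_0030002079, 1284421 to 1285016, plus strand), with its intron inside an exon of the gene named LOC102946415, had 3.76, 5.58 and 8.93 CPM in the 6 DMSO libraries and 13.3, 20.4 and 35.0 CPM in the 6 Am580 libraries. Locus and gene rose alike, with log2 fold changes of 1.84 ± 0.24 and 1.73 ± 0.19. MSTRG.18673 (scaffold AMEXG_0030005904, 565319 to 664762, plus strand), opposite the gene named LOC102936329, had 0.301, 0.418 and 0.592 CPM in the 6 DMSO libraries and 1.28, 1.83 and 2.26 CPM in the 6 Am580 libraries. It rose by 2.003 ± 0.23 on the log2 scale where its gene rose by 0.44 ± 0.10, and it is the one of these 4 whose ratio to the gene changed (log2 1.45 ± 0.21, limma, adjusted p = 0.000891).

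**Figure D2:**
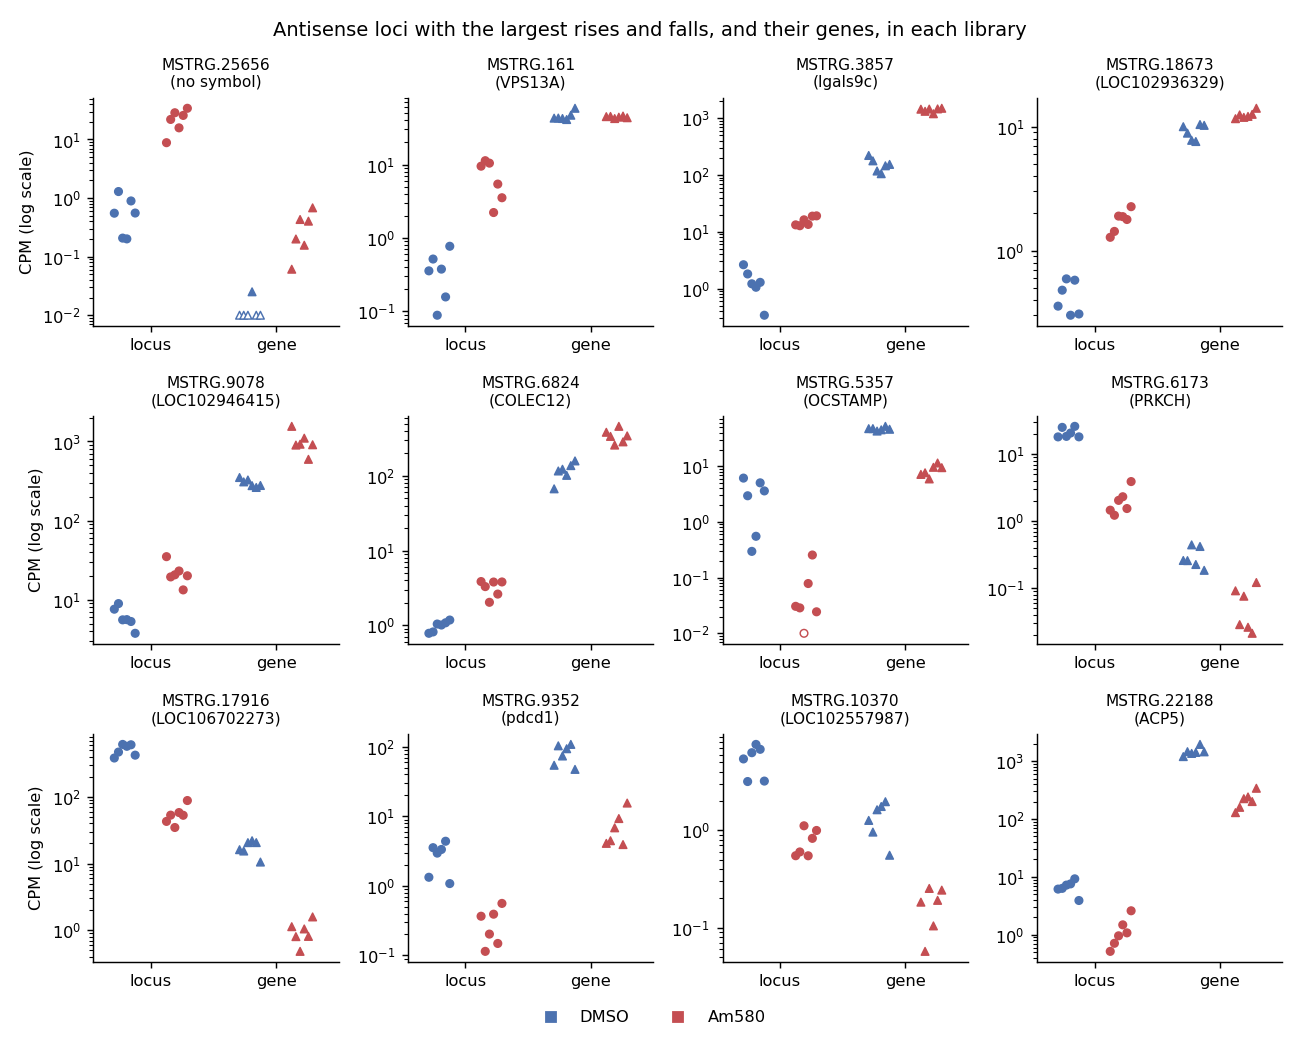
CPM in each of the 12 libraries, on a log scale with a range of its own in each panel, for the 6 antisense loci with the largest rises and the 6 with the largest falls (circles) and for the genes they cross (triangles), DMSO in blue and Am580 in red. Points stand in replicate order, and open symbols at 0.01 CPM mark a count of 0. All 12 loci separate by treatment because they were chosen that way. Their genes separate too except VPS13A, which stays between 40.9 and 58.2 CPM. How far reads of a gene's own strand entered its locus was not tested. The separation of the genes is therefore not independent of how the loci were chosen.

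The 6 largest falls were in loci opposite OCSTAMP and ACP5, which are genes of osteoclasts, opposite pdcd1 and PRKCH, and opposite a pair of genes known only by a database name. MSTRG.5357 (scaffold AMEXG_0030001093, 1904098 to 1968185, minus strand) met OCSTAMP, a transmembrane protein needed for osteoclast fusion in mice, head to head, without shared exon bases. It had 0.296, 3.28 and 6.13 CPM in the 6 DMSO libraries and 0, 0.0295 and 0.255 CPM in the 6 Am580 libraries, and its log2 fold change was -5.32 ± 0.88, adjusted p = 0.00115. OCSTAMP had 42.9, 46.8 and 52.1 CPM in the 6 DMSO libraries and 5.93, 8.54 and 11.4 CPM in the 6 Am580 libraries, and fell by 2.46 on the log2 scale (adjusted p = 3.61e-07). The larger fall of the locus did not pass the test of the ratio (log2 -1.81 ± 0.63, limma, adjusted p = 0.17). That ratio used a prior count of 2, which draws changes of loci near 0 counts toward 0. It therefore does not show that locus and gene fell alike.

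MSTRG.22188 (scaffold AMEXG_0030009379, 1144305 to 1144646, minus strand), whose intron lay inside an exon of ACP5, the tartrate-resistant acid phosphatase of osteoclasts, had 3.92, 6.79 and 9.27 CPM in the 6 DMSO libraries and 0.519, 1.02 and 2.603 CPM in the 6 Am580 libraries. ACP5 had 1195, 1428 and 1940.4 CPM in the 6 DMSO libraries and 129, 212 and 339 CPM in the 6 Am580 libraries, so the locus held 0.474% of the gene's CPM. The log2 fold change was -2.45 ± 0.35, adjusted p = 0.000367 for the locus and -2.77 ± 0.22, adjusted p = 2.96e-06 for ACP5. MSTRG.9352 (scaffold AMEXG_0030002160, 110901 to 122613, plus strand), inside pdcd1, the inhibitory receptor PD-1 of T cells, had 1.08, 3.15 and 4.39 CPM in the 6 DMSO libraries and 0.114, 0.284 and 0.560 CPM in the 6 Am580 libraries, and fell by 3.21 where the gene fell by 3.44, both on the log2 scale. Of the osteoclast and macrophage markers given above, CTSK, ACP5 and CSF1R fell while MARCO rose, and ACP5 is itself the gene that MSTRG.22188 crosses. The part of cell numbers in the falls of these loci was not tested.

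MSTRG.6173 (scaffold AMEXG_0030001283, 4218351 to 5140143, plus strand) mirrored all 13 of its introns on PRKCH, the eta form of protein kinase C, and spanned 921793 bases. It had 18.2, 19.7 and 26.2 CPM in the 6 DMSO libraries and 1.23, 1.80 and 3.92 CPM in the 6 Am580 libraries, and fell by 3.34 ± 0.26 on the log2 scale (adjusted p = 2.98e-06). The PRKCH model had 0.185, 0.259 and 0.444 CPM in the 6 DMSO libraries and 0.0212, 0.0523 and 0.122 CPM in the 6 Am580 libraries, under the filter, so it was not tested, and all 6 Am580 libraries were below all 6 DMSO libraries there too.

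MSTRG.17916 (scaffold AMEXG_0030005483, 268133 to 299319, plus strand), opposite the gene named LOC106702273, was the most abundant locus to fall, with 382, 521 and 612 CPM in the 6 DMSO libraries and 34.7, 53.0 and 88.1 CPM in the 6 Am580 libraries. Its gene held far less, at 10.5, 18.3 and 22.0 CPM in the 6 DMSO libraries and 0.481, 0.926 and 1.58 CPM in the 6 Am580 libraries. The locus fell by 3.21 and the gene by 4.17 on the log2 scale, and the smaller fall of the locus passed the test of the ratio (0.88 ± 0.16, limma, adjusted p = 0.00488). MSTRG.10370 (scaffold AMEXG_0030002458, 5870871 to 5982583, plus strand), tail to tail with the gene named LOC102557987, had 3.17, 5.85 and 7.64 CPM in the 6 DMSO libraries and 0.548, 0.714 and 1.11 CPM in the 6 Am580 libraries, and fell by 2.80 where its gene fell by 2.95. No call among these 12 loci was lost under any alternative or with any library left out. The loci had been chosen for large changes without overlap, so this does not speak for other called loci.

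The second question was how a locus changed relative to the gene it crossed. Both passed the count filter in 810 pairs. Locus and gene were both called in 64 pairs, and in 63 of them they moved the same way, 28 up and 35 down. Of these 63, 27 were loci under 1% of the gene's CPM that shared over 90% of their exon bases. How far the counts of such loci were read from the gene's own strand was not tested, so their match with the gene may not concern a separate transcript. Only the locus was called in 40 pairs, only the gene in 77, and neither in 629. Of the 77 genes and 40 loci called alone, a p that missed the threshold does not show that the partner did not change. The sign of the fold change was the same in 556 pairs (68.6%), the Pearson correlation of the fold changes across pairs was 0.71 and the Spearman correlation 0.59, with both sides measured in the same 12 libraries. In 53 of the 64 pairs both called, the fold changes differed by less than 0.5 on the log2 scale.

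The match differed with the kind of overlap. Where over 90% of the locus's exon bases were shared, 77.6% of 419 pairs had the same sign, the correlation of fold changes was 0.92 and all 45 pairs both called moved together. Where up to 90% were shared, 67.8% of 245 pairs had the same sign, the correlation was 0.77 and all 14 pairs both called moved together. Where none were shared, 44.5% of 146 pairs had the same sign, the correlation was 0.29, and 5 pairs were both called, 4 of them in the same direction. The correlation was highest in loci with introns inside gene exons, at 0.96 over 174 pairs, with 28 of 28 pairs both called moving together. This correlation did not simply rise with the share of exon bases. Loci with a mirrored intron shared a median of 98.6% of theirs, and had a correlation of 0.61 and the same sign in 66.8% of 220 pairs. The loci with other shared exon bases shared a median of 34.4%, and had a correlation of 0.86 and the same sign in 71.9% of 270 pairs. By the median absolute difference of log2 fold changes, mirrored loci were closest to their genes, at 0.151. It was 0.161 for introns inside gene exons, 0.176 for other shared exon bases and 0.389 without shared bases. A correlation also depends on how many pairs changed, and both were called in 4 mirrored pairs, 28 with introns inside gene exons and 27 with other shared bases.

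**Figure D3:**
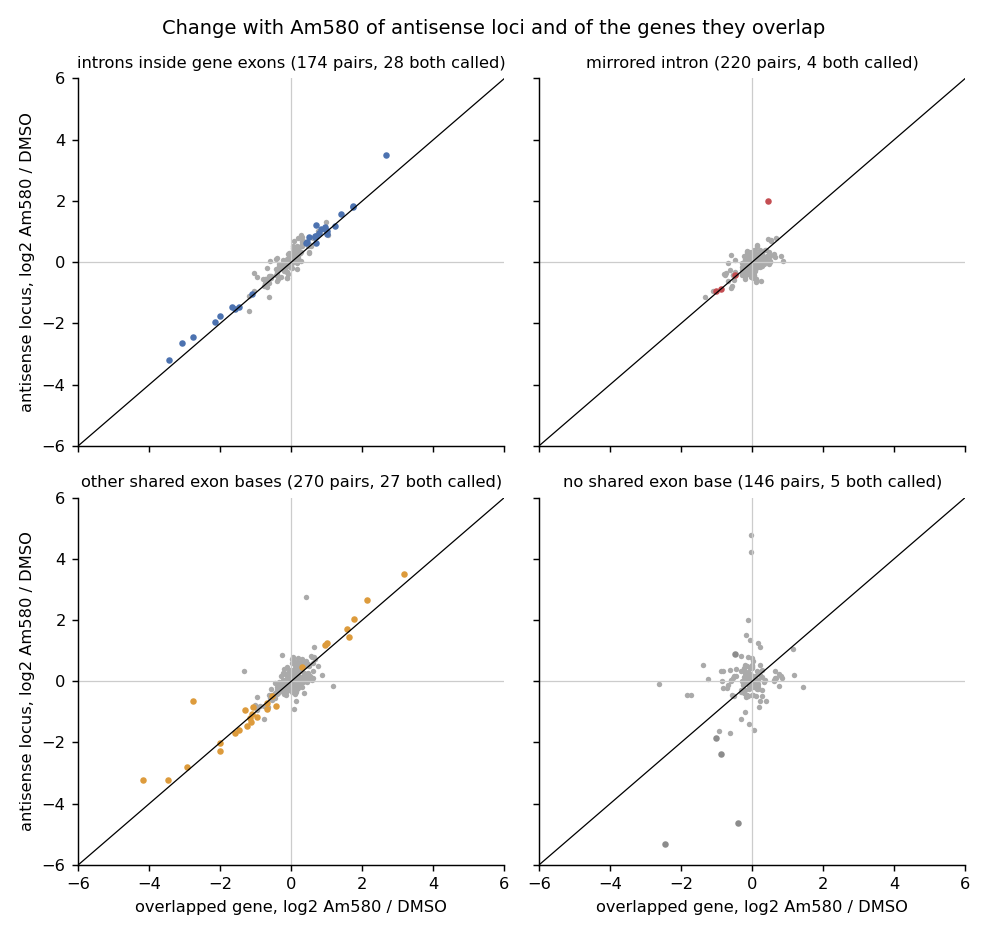
Log2 fold change with Am580 of the antisense locus (vertical) against that of the gene it crosses (horizontal) in 810 pairs, in 4 panels by kind of overlap, with coloured points where both were called and the line marking equal change. Points of loci with introns inside gene exons lie along the line (correlation 0.96), and those of loci without shared exon bases scatter around both axes (correlation 0.29).

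Loci and genes also went up and down together between animals of the same treatment. With the treatment means taken out, the median correlation of locus and gene over the 12 libraries was 0.40 across the 810 pairs. It was 0.58 for introns inside gene exons, 0.42 for other shared exon bases, 0.39 for mirrored introns and -0.01 without shared exon bases. As a comparison, 936 pairs of reference genes that overlap on opposite strands had a median of 0.24, a fold change correlation of 0.55 and 61.5% of pairs with the same sign, and of 47 such pairs both called 42 moved together and 5 apart. These correlations describe shared libraries and depths and were given no test.

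**Figure D4:**
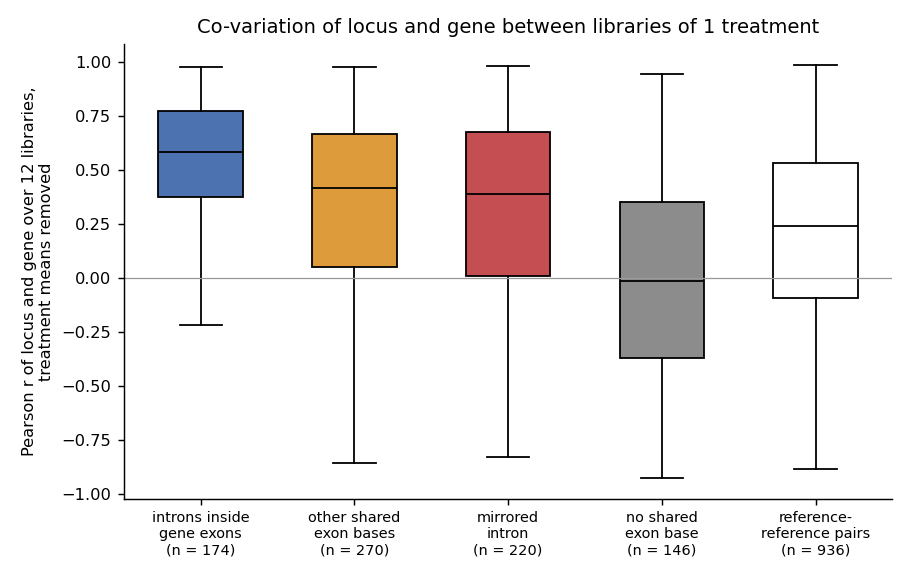
Pearson correlation of locus and gene over the 12 libraries after the treatment means were removed, by kind of overlap, and for 936 opposite-strand pairs of reference genes. Boxes span the quartiles, the line in each is the median and whiskers reach the farthest value within 1.5 box lengths. The median is 0.58 for loci with introns inside gene exons and -0.01 for loci without shared exon bases.

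A change of the locus apart from its gene was tested on the log2 ratio of both in each library, over all 2062 opposite-strand pairs of tested genes. The ratio changed in 23 of the 810 pairs (2.84%), 13 up and 10 down, where 4.41% of all opposite-strand pairs passed and 6.73% of reference pairs. Without Am580 replicate 2 the count was 15. Of the 23, 12 were among the 146 pairs without shared exon bases, 4 among those with a mirrored intron, 7 among other shared exon bases and 0 among the 174 with introns inside gene exons, of which 9 had an unadjusted p under 0.05 and 0 were called by limma without a trend. Over the 810 pairs, 102 had an unadjusted p under 0.05 by limma.

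The largest ratio changes were those of the VPS13A loci, with 4.07 ± 0.46, limma, adjusted p = 7.38e-05 for MSTRG.161 and 3.85 ± 0.38, limma, adjusted p = 2.09e-05 for MSTRG.160. The latter locus had at most 4 counts in any DMSO library. MSTRG.12071, inside CCDC86, a nucleolar coiled-coil protein, rose from 3.15 ± 0.947 CPM with DMSO to 9.02 ± 2.69 CPM with Am580 (mean ± SD, n = 6), while CCDC86 had a log2 fold change of -0.17 (adjusted p = 0.269). MSTRG.15207 (scaffold AMEXG_0030004228, 546838 to 759925, plus strand), head to head with the phosphatase gene CTDSP2, fell the other way, with 0.289, 0.777 and 1.45 CPM in the 6 DMSO libraries and 0, 0.0153 and 0.104 CPM in the 6 Am580 libraries, at most 4 counts in any Am580 library. Its log2 fold change was -4.64 ± 0.74, adjusted p = 0.00085, that of CTDSP2 -0.39 ± 0.07, adjusted p = 0.00167, and that of the ratio -2.85 ± 0.45, limma, adjusted p = 0.00146. The loci at CCDC86 and CTDSP2, and those of the next paragraph other than MSTRG.1649, were picked after their values were seen.

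A single pair was called in opposite directions. MSTRG.1649 (scaffold AMEXG_0030000292, 6404702 to 6774633, plus strand) spanned 369932 bases inside OSBPL2, a lipid-binding protein of the oxysterol-binding family, and shared none of its exon bases. It had 4.45, 5.58 and 7.37 CPM in the 6 DMSO libraries and 7.55, 9.62 and 14.3 CPM in the 6 Am580 libraries, and OSBPL2 had 21.8, 23.8 and 26.9 CPM in the 6 DMSO libraries and 13.97, 17.3 and 18.8 CPM in the 6 Am580 libraries, so the treatments separated in both and in opposite order. The locus rose with a log2 fold change of 0.88 ± 0.18, adjusted p = 0.00472, the gene fell with -0.48 ± 0.08, adjusted p = 0.0015, and the ratio changed by 1.33 ± 0.20, limma, adjusted p = 0.00105. In other pairs the gene was called and the locus was not: the gene named LOC102351091 fell by 2.62 and its locus MSTRG.1880 stood at -0.08, and UNC93B1, a chaperone of Toll-like receptors, rose by 0.76 with its locus MSTRG.3246 at -0.17, all on the log2 scale.

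Called loci at CD68, ATP6V0C and SIGLEC15 were also picked after their values were seen. CD68, a lysosomal glycoprotein of macrophages, carried MSTRG.22817, which fell from 27.1 ± 2.26 CPM with DMSO to 8.42 ± 3.73 CPM with Am580 (mean ± SD, n = 6), and MSTRG.22818, which fell from 94.9 ± 18.5 CPM with DMSO to 43.3 ± 11.6 CPM with Am580. The CD68 model on the other strand had only 10.04 CPM on average and a log2 fold change of -0.62 ± 0.21, adjusted p = 0.0651. The ratio of MSTRG.22817 to it changed (-1.17 ± 0.19, limma, adjusted p = 0.00159), and that of MSTRG.22818 did not pass (-0.52 ± 0.17, limma, adjusted p = 0.142). ATP6V0C, a proton pump subunit abundant in osteoclasts, fell by 1.12 on the log2 scale, and its loci MSTRG.7395 and MSTRG.7396, at 0.877% and 0.943% of its CPM, fell by 1.05 and 1.09. Against that direction, SIGLEC15, a receptor of osteoclast precursors, rose by 2.68 and its locus MSTRG.19710 by 3.50. This locus is not among the leading rises above, so it averaged under 1 CPM or its treatments overlapped.

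Loci opposite genes of the pathways a limb study would look for were counted with gene lists. How many of all reference genes are on these lists was not counted, so the numbers cannot be called few or many. Of the crossed genes, 205 had no symbol or only a database or placeholder name, and the lists can miss those. The gene lists, matched by symbol, held 20 loci opposite matrix and adhesion genes, 15 opposite cell cycle and chromatin genes, 11 opposite signalling genes, 3 opposite further transcription factors, 1 opposite a limb patterning gene, TBX5, and 0 opposite HOX and TALE homeobox genes or the retinoid pathway. Of the 20 matrix and adhesion loci 3 rose and 3 fell, with a median log2 fold change of 0.08, and of the 30 loci of the other lists 0 were called by edgeR, 3 had an unadjusted p under 0.05 and 1 was called by DESeq2. Of all genes tested, 14.1% were called.

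Fibronectin, FN1, the main adhesive glycoprotein of the blastema matrix, rose with Am580 (log2 fold change 0.68 ± 0.17, adjusted p = 0.0146) at 1362, 1921 and 2579.9 CPM in the 6 DMSO libraries and 2343, 3242 and 3811 CPM in the 6 Am580 libraries. Both of its antisense loci held under 1% of that. MSTRG.2233 (scaffold AMEXG_0030000408, 3313418 to 3313993, plus strand) had 0.895, 1.999 and 2.63 CPM in the 6 DMSO libraries and 3.48, 4.16 and 6.20 CPM in the 6 Am580 libraries, without overlap, and rose (1.20 ± 0.22, adjusted p = 0.00272). MSTRG.2234 had 2.89, 4.18 and 7.49 CPM in the 6 DMSO libraries and 3.78, 7.91 and 11.7 CPM in the 6 Am580 libraries, with a log2 fold change of 0.79 ± 0.27, adjusted p = 0.0736, which passed with DESeq2, without DMSO replicate 3 or without Am580 replicate 1 and had adjusted p from 0.0164 to 0.156 over its alternatives.

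The collagen VI chain gene COL6A2 rose (0.66 ± 0.14, adjusted p = 0.00699), and so did both of its loci, which had their introns inside its exons. How far their counts were read from the gene's own strand was not tested. Their spans overlap, so the loci are not independent of each other. MSTRG.11405 (scaffold AMEXG_0030002786, 1126739 to 1128707, minus strand) had 2.04, 3.28 and 4.47 CPM in the 6 DMSO libraries and 4.77, 5.42 and 6.64 CPM in the 6 Am580 libraries and a log2 fold change of 0.82 ± 0.19, adjusted p = 0.0109. MSTRG.11406, whose span lies inside that of MSTRG.11405, had 0.368, 0.487 and 0.681 CPM in the 6 DMSO libraries and 0.584, 0.923 and 1.20 CPM in the 6 Am580 libraries, with 0.85 ± 0.23, adjusted p = 0.0256, and its call was lost without DMSO replicate 5 or 6 or Am580 replicate 2 or 3, with a highest adjusted p of 0.0597.

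Both integrin genes crossed by a named locus fell with Am580. They do not stand for integrins as a whole, since the authors reported several other integrin genes as higher. The gene itgb3, the integrin beta chain of platelets and osteoclasts, fell by 1.31 on the log2 scale, and MSTRG.1414, at 0.843% of its CPM, had 0.956, 1.53 and 2.36 CPM in the 6 DMSO libraries and 0.470, 0.845 and 1.22 CPM in the 6 Am580 libraries and -0.94 ± 0.28, adjusted p = 0.0368. That call was lost in 10 of 20 alternatives, among them each of DMSO replicates 1, 4 and 5 and Am580 replicates 1 to 5 left out, with adjusted p up to 0.111. The assembled gene at itgb3 also holds another reference transcript. ITGB2, the beta chain of leukocyte integrins, fell by 0.77, and MSTRG.21999, with 1.17, 1.61 and 2.04 CPM in the 6 DMSO libraries and 0.580, 0.839 and 1.53 CPM in the 6 Am580 libraries, had -0.78 ± 0.25, adjusted p = 0.052, and passed with DESeq2, with the current quasi-likelihood form of edgeR, and without DMSO replicate 6 or Am580 replicate 6, with adjusted p from 0.0131 to 0.115 over its alternatives.

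In the remaining listed loci the call was lost in some alternatives, or the gene was called and the locus was not. None of them was among the pairs whose ratio to the gene changed. A locus that missed the threshold is therefore not shown to differ from its gene. MSTRG.4723, a locus of 1 exon inside ITGB3BP, which matched the list by its name but is a centromere protein, had 4.67, 5.47 and 6.72 CPM in the 6 DMSO libraries and 3.20, 3.94 and 4.89 CPM in the 6 Am580 libraries and fell (-0.47 ± 0.13, adjusted p = 0.0249), a call lost in 6 of 20 alternatives, among them DMSO replicate 2 or 6 or Am580 replicate 5 or 6 left out, with adjusted p up to 0.0833. MSTRG.19015, which mirrored both introns it has on the metalloproteinase gene MMP28, had 0.533, 1.10 and 1.39 CPM in the 6 DMSO libraries and 0.361, 0.582 and 0.801 CPM in the 6 Am580 libraries and -0.84 ± 0.26, adjusted p = 0.0477, a call lost in 14 of 20 alternatives, with 10 of the 12 libraries left out in turn among them and adjusted p up to 0.115. MSTRG.10739, opposite RUNX2, the osteoblast transcription factor, had 0.432, 0.922 and 1.23 CPM in the 6 DMSO libraries and 0.824, 1.02 and 1.22 CPM in the 6 Am580 libraries and was not called (0.23 ± 0.24, adjusted p = 0.621), while RUNX2 fell (-0.60 ± 0.17, adjusted p = 0.0317). MSTRG.9491, head to head with the cyclin gene CCNE1, had 0.420, 0.557 and 0.804 CPM in the 6 DMSO libraries and 0.657, 0.994 and 1.59 CPM in the 6 Am580 libraries and was not called (0.76 ± 0.27, adjusted p = 0.0823), while CCNE1 rose (0.45 ± 0.10, adjusted p = 0.00992).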

How the data were processed

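RNA of 12 blastema mesenchymes was made into stranded, polyA-selected libraries (Illumina TruSeq) and sequenced as read pairs. The authors trimmed reads with Trimmomatic 0.36, checked them with FastQC 0.11.7, placed them on the AmexG_v3.0.0 genome by HISAT2 2.1.0, handled alignments with SAMtools 1.8, and built 1 assembly over all libraries with StringTie 1.3.4d and the reference genes. The deposited count table holds whole read pairs per gene on exons, counted by the authors with featureCounts of Subread 1.6.2 for the reverse strand, without normalization. Reads of a locus and of the gene on the other strand are therefore counted apart, as far as the library kept the strand. The authors give a strand setting for the counting and none for the alignment or the assembly. How the assembly set the strand of each locus was not tested. The deposited merged assembly gives 1-based positions of transcripts and exons, from which overlaps, introns and exon lengths were computed. A deposited table of normalized signal was not used. Gene symbols are those the assembly carries, and 205 of the crossed genes had none or only a database or placeholder name. Roles of genes given in the text are background known mainly from human and mouse.

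A gene entered the tests when 6 or more libraries had 10 or more counts for it. Counts were scaled with TMM factors and treatments compared with edgeR 4.0.16 (quasi-likelihood F test, legacy form, no covariate) in R 4.3.3, with Benjamini-Hochberg adjustment over all 25879 genes and a threshold of 0.05. Standard errors of log2 fold changes were derived from the F statistic. RPKM is CPM divided by the merged exon length in kilobases. Ratios were tested with limma 3.58.1 (trend) on log2 CPM with a prior count of 2, adjusted over 2062 opposite-strand pairs. The prior count draws ratio changes of loci near 0 counts toward 0. They can therefore be smaller than the difference of the edgeR fold changes. Tables and plots used Python 3.11.15, pandas 2.3.3, numpy 2.4.6 and matplotlib 3.10.9, and DESeq2 1.42.0 was an alternative.

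Both steps were tested on simulated data. For the comparison of Am580 with DMSO, 190 genes changed by 1.5 on the log2 scale passed the count filter, among 25396 genes. Of the 190, 152 were recovered (80.0%), with 6.17% false calls. For the ratios, 79 of 99 pairs changed by 1.5 were recovered (79.8%) among 2000 pairs, with 4.82% false calls. The simulation drew each gene independently, whereas real pairs of locus and gene had a median correlation of 0.40 within treatments. It also changed far fewer genes than the 3660 called in the data. These rates therefore need not hold for the real data, least of all for the ratios.

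The loci, gene lists and tests were chosen with earlier results of these data known. Loci were named by rule: the 6 highest and 6 lowest log2 fold changes among called loci of at least 1 CPM whose treatments did not overlap, the 5 most abundant, up to 10 opposite a listed gene where either was called, and pairs called in opposite directions. Others are said to have been picked after their values were seen. Replicate numbers were not taken as pairs, since the authors describe none. Same-numbered libraries correlated at -0.172 to 0.235 after treatment means were removed. The median correlation with the other numbers was -0.172 to 0.0518. Alternatives were other scalings, filters and tests, the replicate block, each library left out, and other memberships. The depth of each library lay between 27226012 and 43793138 counts, and the errors given with ± hold the spread between 6 animals of a treatment.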

Additional observations from a re-analysis of the deposited data

Results flagged for a closer look

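Dixon's test was run in each treatment on the 28 named loci, on the share of counts in antisense loci and on their median level. Of these 60 groups of 6 libraries, 3 held a library far from the rest, where chance marks about 1 group in 20. The locus MSTRG.953, opposite PIDD1, had 1110.3 CPM in Am580 replicate 1 and 623 to 758 CPM in the other 5 Am580 libraries. The locus MSTRG.23405, opposite a gene without a symbol, had 741 CPM in the same library and 353 to 457 CPM in the other 5. The locus MSTRG.2233, opposite FN1, had 0.895 CPM in DMSO replicate 6 and 1.78 to 2.63 CPM in the other 5 DMSO libraries.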

How the results depend on the processing

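Of the counts and medians over all loci, most moved by less than 1.5 times, or less than the spread between libraries, under the alternatives. The ratio of locus to gene changed in 35 pairs with no filter on low counts and in 11 where shared exon bases were required, against 23, and in 15 (without Am580 replicate 2) to 26 (without DMSO replicate 1) with a library left out. The median log2 ratio of locus to gene level was -1.57 with no filter, 0.93 where shared exon bases were required, 1.58 for loci of 2 or more exons, and 1.13 to 1.28 with a library left out, where fewer loci pass the filter, against 1.11. Requiring shared exon bases left 0 pairs called in opposite directions. Alternatives on membership were added after seeing the data: without the 203 loci under 1% of the gene's CPM 35 loci were higher and 36 pairs moved together. Without the 469 loci that share over 90% of their exon bases 60 loci were called, 21 higher and 39 lower, and 18 pairs moved together. With a library left out, 112 (without DMSO replicate 5) to 141 (without Am580 replicate 1) loci were called, and 47 to 70 pairs moved together. DESeq2 called 163 loci.

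With library size alone 51.1% of called loci were higher and 59.4% of all called genes, against 40.9% and 49.0%. With the replicate number as a block 123 loci were called and the ratio changed in 17 pairs. The authors describe no pairing of animals. That 2 of the 6 numbers correlated best with their own number does not decide whether the numbers pair the libraries. Of 560 fits of the 28 named loci 516 kept their direction and call, 34 lost the call, 7 gained one and 3 turned: MSTRG.413 ranged from -0.021 to 0.055 and MSTRG.23405 from -0.045 to 0.22 on the log2 scale with a library left out, both uncalled. The depth sets 0.0685 to 0.110 CPM as the most a 0 allows.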

Other observations

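The 6 loci next given were called in edgeR's quasi-likelihood test and were picked, from no fixed list, after their values were seen. MDK codes for midkine, a heparin-binding growth factor, and its locus MSTRG.23322 rose with Am580 from 3.14 ± 1.32 to 7.40 ± 1.66 CPM (mean ± SD, n = 6), with log2 fold changes of 1.23 for the locus and 1.01 for the gene. PLAT, tissue plasminogen activator, carried MSTRG.424, which rose from 1.61 ± 0.461 to 4.83 ± 0.785 CPM, with log2 values of 1.58 for the locus and 1.39 for the gene. FSCN1 codes for an actin-bundling protein, and its locus MSTRG.2462, at 0.119% of its CPM, rose too, with 0.90 for the locus and 1.0 for the gene. At wisp1, a matricellular gene, the locus MSTRG.8218 held 0.744% of the gene's CPM, with 2.02 for the locus and 1.78 for the gene. MSTRG.8218 is not among the leading rises above, so it averaged under 1 CPM or its treatments overlapped. Both loci of MARCKS, a membrane-bound actin regulator, rose, MSTRG.9120 by 0.84 and MSTRG.9121 by 0.64 on the log2 scale, where MARCKS rose by 0.69. For none of these 6 loci did the ratio to the gene pass the test, with adjusted p from 0.673 to 0.969 by limma. How far the counts of these loci were read from the gene's own strand was not tested. Their ratios therefore do not show separate transcripts changing alike.

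Some loci with mirrored introns fell while the gene model on the other strand was too low to be tested. MSTRG.231, opposite P4HA3, fell from 5.13 ± 1.14 to 2.001 ± 0.651 CPM, and its log2 fold change was -1.35 (adjusted p = 0.001). MSTRG.20883, opposite TRAF3, an adapter of tumour necrosis factor receptors, fell from 2.88 ± 0.398 to 1.49 ± 0.365 CPM, at -0.95 (adjusted p = 0.00261). MSTRG.1113, opposite FAM69B, fell from 1.51 ± 0.433 to 0.208 ± 0.0668 CPM, at -2.84 (adjusted p = 1.51e-05).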
